A study of Mus musculus with 20 samples.

Results

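Enhancers that carried the priming mark H3K4me1 without acetylation in mouse embryonic stem (ES) cells, and that carried the activity mark H3K27ac in whole liver, made up 306 bins of 1 kb out of 2462427 bins on chromosomes 1 to 19. They joined into 282 regions. A bin was taken as distal where H3K4me3, the promoter mark, stayed under 1.5 reads per 1000000 distinct reads (RPM) in ES cells and in liver, in the bin and both its neighbours, which left 2275022 distal bins. Of these, the premarked bins had an ES H3K4me1 mean of at least 2 RPM and at least 2-fold over total histone H3 plus 0.1 RPM. They also had H3K27ac under 0.7 RPM in each ES library, and liver H3K27ac of at least 2 RPM and at least 2-fold over liver H3 plus 0.1 RPM. The bins were selected on these measured values, so they are described without a test, and tests were kept to p300 and to H3K4me1 of liver, fibroblasts and iPS cells.

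The series held 20 chromatin immunoprecipitation sequencing (ChIP-seq) libraries, in which DNA recovered with an antibody is sequenced and its reads are mapped. Liver gave single libraries of H3K4me1, H3K27ac, H3K4me3, H3 and WCE (whole cell extract, in which no antibody is used), from perfused whole liver that was dissociated, strained and spun at low speed, with the strain, age and sex of the mice not given in the sources used here. Induced pluripotent stem (iPS) cells, labelled O6 and made from fibroblasts, gave H3K4me1, and mouse embryonic fibroblasts (MEFs) gave H3K4me1 and H3. Neural progenitor cells (NPCs), grown in FGF and EGF from 4-day-old embryoid bodies of 129JAE-C57/B6 origin, gave H3K27ac and Rfx1, a transcription factor. ES cells gave 3 libraries of H3K4me1, 2 of H3K27ac, 2 of p300, and single ones of H3, H3K4me3 and WCE. The ES line was V6.5 (C57BL/6-129), except that the second H3K4me1 library came from cells with the dox inducible 4f2a transgene and the third from inbred C57BL/6 cells (j21). The labels name no treatment, and ES and iPS cells were grown on MEF feeders until 1 or 2 passages before fixation. Liver holds several cell types, so a level there averages over them, and a mark in few cells cannot be told apart from a weak mark in many.

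Enhancers are DNA elements that raise transcription of genes at a distance, and their nucleosomes carry H3K4me1 whether or not the element is in use. H3K27ac is placed on nucleosomes of elements in use, in part by the acetyltransferase p300, which transcription factors bring to enhancers. An element with H3K4me1 and no H3K27ac is commonly called primed or poised, and some such elements gain acetylation when cells differentiate. The labels name no gene at any position, and the annotation at hand was of another genome build, so regions are given by position without a gene or a sequence. The build itself is not given in the sources used here. Positions fit the chromosome lengths of mm8 and run past some of those of GRCm38, and coordinates below are therefore given as mm8, inferred.

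Sequencing depth limited what a single bin could show. Distinct reads on chromosomes 1 to 19 ranged over libraries between 0.694 M (M, 1000000 reads; Rfx1) and 14.3 M (MEF H3K4me1), and iPS H3K4me1 had 2.29 M. A level of 2 RPM in 1 bin thus stood for 28.6 reads in the MEF library, 14.6 in liver H3K4me1, 13.6 in NPC H3K27ac and 4.59 in iPS H3K4me1. Repeated positions made up 72.5% of the Rfx1 reads and 70.0% of the ES H3K4me3 reads and were counted once, as in every library. Intervals below are 95% Wilson intervals over bins, which cover counting error only. Bins of 1 library are not replicates of a condition, and single libraries give no spread between animals or cultures.

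The premarked bins were a small share of either source. They were 4.18% (3.75 to 4.66%) of the 7319 distal bins with ES H3K4me1 and no ES H3K27ac, of which 6105 bins, or 83.4%, had liver H3K27ac under 0.7 RPM. They were 0.927% (0.829 to 1.04%) of the 33024 distal bins with liver H3K27ac. For scale, liver H3K27ac passed the same limits in 1.45% of all distal bins and in 8.24% of distal bins with ES H3K4me1, acetylated ones included. Of the 282 regions, 259 were 1 kb wide, 17 were 2 kb and 6 were 3 kb.

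The values that chose the bins were as follows. ES H3K4me1 averaged 2.50, 2.32 and 2.77 RPM in the 3 libraries, or 2.53 ± 0.227 RPM (SD, n = 3 libraries), and the mean per bin had a lowest value of 2.00, a median of 2.40 and a highest value of 4.33 RPM. All 3 ES libraries reached 2 RPM in 112 bins, exactly 2 of them in 137 bins and 1 in 57 bins. Liver H3K27ac averaged 4.44 RPM, with a lowest value of 2.18, a median of 3.37 and a highest value of 26.7 RPM, against 0.510 RPM of liver H3. ES H3K27ac averaged 0.471 and 0.373 RPM in its 2 libraries, against 0.566 RPM of ES H3. At the H3K4me1 limit, 94 bins lay between 2 and 2.2 RPM, and 122 otherwise eligible bins lay just outside, between 1.8 and 2 RPM. At the liver H3K27ac limit, 34 bins held 2.18 RPM, and 36 lay just outside at 1.98 RPM. At the ES H3K27ac limit, 69 bins had 0.684 RPM in the higher library, and 144 lay just outside at 0.714 to 0.799 RPM, where 0.7 RPM stood for about 6 reads (6.14 and 5.88 in the 2 libraries).

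Liver H3K4me1, which the selection did not use, was high at the premarked bins. It averaged 4.81 RPM, with a lowest value of 0.546, a median of 4.58 and a highest value of 14.9 RPM, which is 9.43 times the level of liver H3. It reached 2 RPM in 264 of the 306 bins, or 86.3% (82.0 to 89.7%), where 3.00% of all distal bins did. The share was 3.93% (3.47 to 4.45%) at premarked bins quiet in liver and 80.8% (80.1 to 81.4%) at 15075 distal bins with liver H3K27ac but under 0.7 RPM of ES H3K4me1 and ES H3K27ac. By RPM, liver H3K4me1 was above the highest of the ES H3K4me1 libraries in 215 of the 306 bins. The rule used ES H3K4me1, and this count was not made in other sets, so it is a description alone. The 42 bins under 2 RPM had at least 1 RPM in 32 cases, and their liver H3K27ac averaged 2.85 RPM, against 4.70 RPM at the other 264 bins. Across the 306 bins, liver H3K27ac and liver H3K4me1 had a Spearman rho of 0.48 and a Pearson r of 0.49, a description over bins that share 2 libraries of the same tissue.

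**Figure D1:**
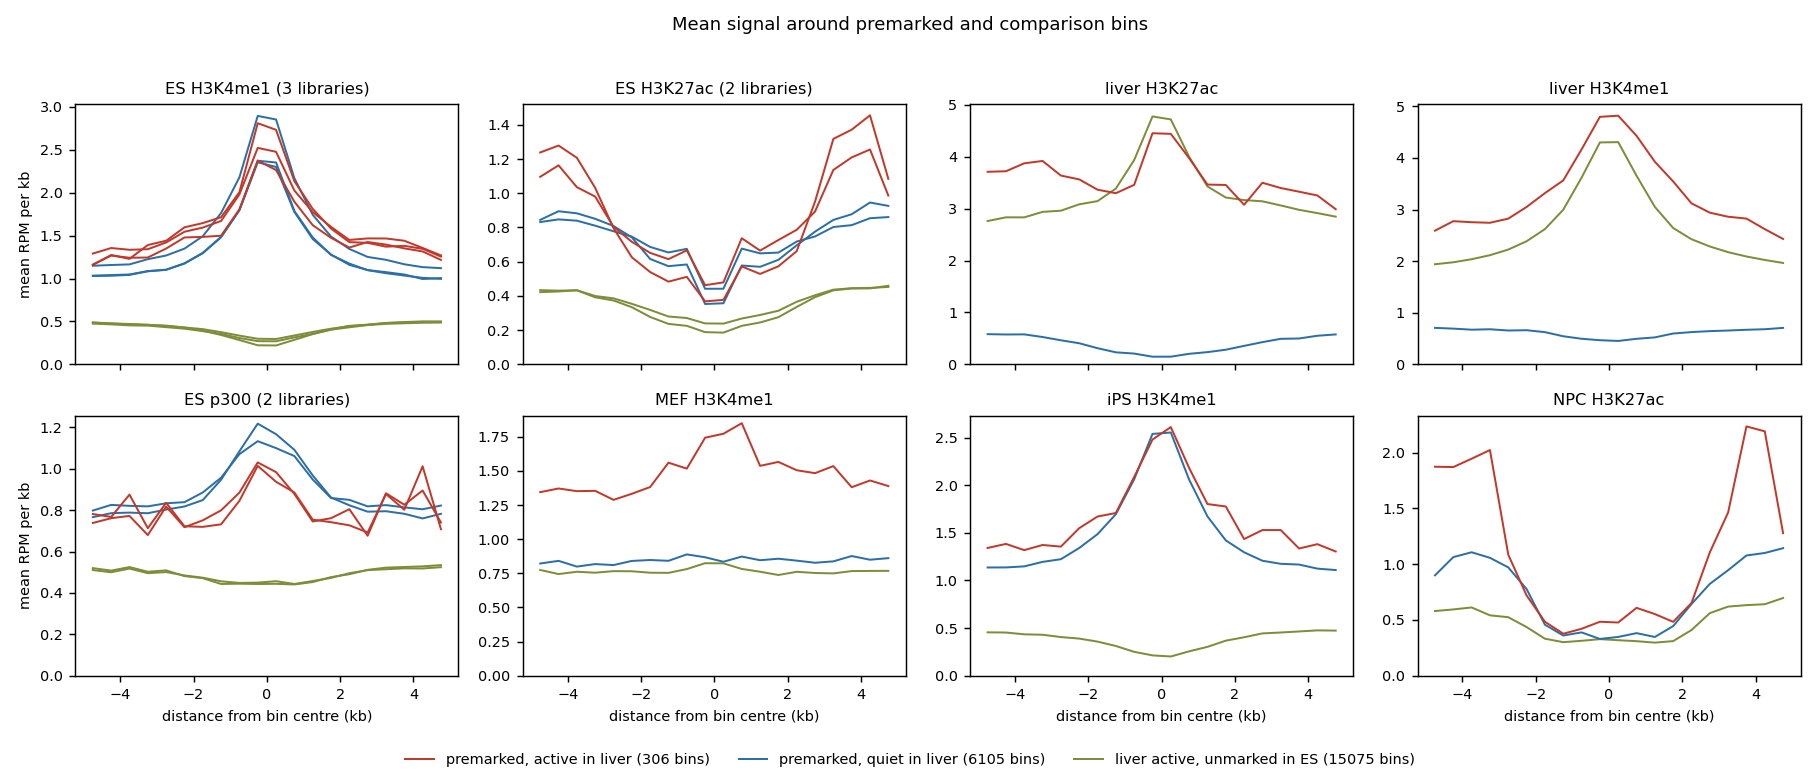
Mean RPM per kb (vertical axes) against the distance from the bin centre in kb (horizontal axes), in 500 bp steps, for premarked bins active in liver (red), premarked bins quiet in liver (blue) and liver-active bins unmarked in ES cells (green), with 1 line per library. Liver H3K4me1 at the premarked liver-active bins stood at 4.81 RPM within 500 bp of the centre and 2.70 RPM at 3 to 5 kb, and H3K27ac of ES cells, which the rule limited in the bins alone, and of NPCs was higher around the bins than in them.

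Around the premarked bins, the marks differed in shape. Liver H3K4me1 stood at 4.81 RPM within 500 bp of the bin centre and at 2.70 RPM per kb at 3 to 5 kb from it. Liver H3K27ac was broad, with 4.44 RPM at the centre and 3.52 RPM per kb at 3 to 5 kb. Another distal bin with liver H3K27ac lay within 1 kb of 72.2% (67.0 to 76.9%) of the premarked bins and of 70.2% of liver-active bins unmarked in ES cells, so most premarked bins lay beside other acetylated liver chromatin. ES H3K4me1 had a centre of 2.32 to 2.77 RPM and flanks of 1.27 to 1.36 RPM per kb, and another distal bin with ES H3K4me1 lay within 1 kb of 57.8% (52.2 to 63.2%) of the premarked bins, against 52.6% of those quiet in liver.

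Acetylation of ES cells was measured beside the bins, where the rule set no limit on it. ES H3K27ac, held under 0.7 RPM in the bins by the rule, stood at 0.471 and 0.373 RPM in the bins and at 1.11 and 1.25 RPM per kb at 3 to 5 kb, and NPC H3K27ac stood at 0.480 RPM in the bins and 1.86 RPM per kb at 3 to 5 kb. Liver H3K4me3 stood at 0.460 RPM in the bins and 2.25 RPM per kb at that distance, where the rule no longer held it down. A bin with at least 2 RPM in both ES H3K27ac libraries lay within 2 kb of 34 premarked bins, or 11.1% (8.06 to 15.1%), against 11.8% (11.0 to 12.6%) of premarked bins quiet in liver, 2.07% of liver-active bins unmarked in ES cells and 4.18% of all distal bins. With ES H3K27ac replicate 1 left out of the rule and of this measure, the share was 19.4% of 682 bins. With replicate 2 left out of both, it was 24.5% of 510 bins. Only the remaining library then had to reach 2 RPM, a looser measure for which no share of all distal bins was computed. The 34 bins near ES acetylation had p300 of 0.833 and 0.685 RPM in the 2 libraries, against 0.994 and 1.05 RPM at the other 272 bins.

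The premarked bins lay closer to H3K4me3, which marks promoters, than distal bins as a whole. Distal bins acetylated in both ES cells and liver lay closer still. The nearest bin with H3K4me3 of at least 1.5 RPM in ES cells or liver was at a median of 5 kb, and 70.3% (64.9 to 75.1%) had one within 10 kb. The medians were 9 kb for premarked bins quiet in liver, with 53.4% within 10 kb, and 8 kb for liver-active bins unmarked in ES cells, with 57.9%. For 2568 distal bins with H3K4me1 and H3K27ac in ES cells and H3K27ac in liver, the median was 4 kb, with 84.3% (82.9 to 85.7%) within 10 kb. Over all distal bins the median was 28 kb, with 25.9% within 10 kb. The limit of 1.5 RPM stood for 3.48 reads in ES H3K4me3 and 11.8 reads in liver H3K4me3, so few ES reads could set a distance. To the nearest liver H3K4me3 bin that was under the limit in ES cells, the median was 10 kb and 50.7% (45.1 to 56.2%) had one within 10 kb. That share was 17.1% for premarked bins quiet in liver, 44.1% for liver-active bins unmarked in ES cells and 8.35% for all distal bins. It was 51.3% (49.4 to 53.3%) for the bins acetylated in both ES cells and liver. Because distance to H3K4me3 differed between these sets, shares in other cells are also given below at more than 10 kb.

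H3K4me1 of MEFs, a somatic cell type of another lineage, was present at a minority of the premarked bins. It averaged 1.76 RPM, with a lowest value of 0, a median of 0.910 and a highest value of 11.5 RPM, against 0.642 RPM of MEF H3. It reached 2 RPM in 93 of the 306 bins, or 30.4% (25.5 to 35.8%), where 3.85% of all distal bins did. The share was 11.8% (11.0 to 12.6%) at premarked bins quiet in liver and 11.9% (11.4 to 12.4%) at liver-active bins unmarked in ES cells. It was 60.3% (58.4 to 62.2%) at 2568 distal bins that carried H3K4me1 and H3K27ac in ES cells and H3K27ac in liver. The premarked bins thus stood above both sets that share only the ES or only the liver side of their rule, with intervals that do not overlap, and below the bins active in both. MEF H3, the background, averaged 0.642, 0.574, 0.570 and 0.820 RPM in the 4 sets in that order, and was 0.385 RPM over all distal bins, and its part in the shares was not tested.

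The shares of MEF H3K4me1 were also taken by distance to H3K4me3. That mark was measured in ES cells and liver and not in MEFs, so promoters in use in MEFs alone were not set apart. More than 10 kb from any H3K4me3 bin, MEF H3K4me1 reached 2 RPM in 33 of 91 premarked bins, or 36.3% (27.1 to 46.5%), against 10.9% (9.78 to 12.1%) of premarked bins quiet in liver and 12.7% (11.9 to 13.5%) of liver-active bins unmarked in ES cells. Within 10 kb, the shares were 27.9% (22.3 to 34.3%), 12.6% (11.5 to 13.8%) and 11.3% (10.7 to 12.0%) in the same order. Of all distal bins, 2.54% reached 2 RPM at more than 10 kb and 7.60% within 10 kb. The intervals of the premarked liver-active bins at the 2 distances overlap. The split at 10 kb was chosen with values of these bins in view, and a part of distance in the shares was not tested.

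**Figure D2:**
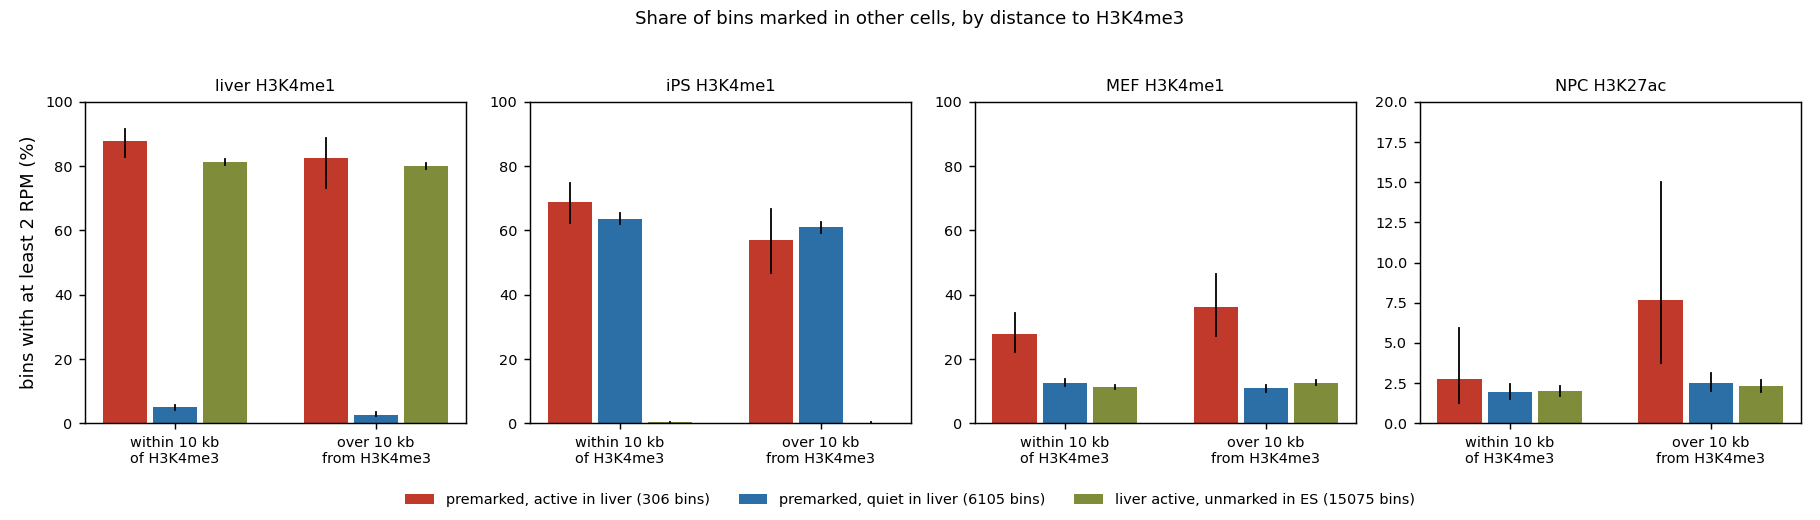
Share of bins with at least 2 RPM (vertical axes, in %, with 95% Wilson intervals as lines) in 4 libraries that the selection did not use, split by distance to the nearest H3K4me3 bin, for premarked bins active in liver (red), premarked bins quiet in liver (blue) and liver-active bins unmarked in ES cells (green). The NPC panel has an axis of its own up to 20%. In the MEF panel the red bars stand at 27.9% and 36.3%, and the other bars between 10.9% and 12.7%.

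Among the premarked bins, those with MEF H3K4me1 had NPC H3K27ac in a higher share, a description that rests on few bins. NPC H3K27ac reached 2 RPM in 9 of these 93 bins, or 9.68% (5.18 to 17.4%), against 4 of the other 213 bins, or 1.88% (0.733 to 4.73%). Over all distal bins the share was 0.735%. The pattern was not particular to the premarked bins. Take liver-active bins unmarked in ES cells, with liver but no iPS H3K4me1. With MEF H3K4me1, 130 of them had NPC H3K27ac and 1368 lacked it. Without MEF H3K4me1, 129 had it and 10512 lacked it. Liver H3K4me1 averaged 5.31 RPM at the 93 bins and 4.59 RPM at the other 213, and liver H3K27ac averaged 4.22 and 4.54 RPM in the same order. MEF H3K4me1 and NPC H3K27ac had a Spearman rho of 0.30 over the 306 bins, while MEF H3K4me1 and liver H3K27ac had one of 0.00, both as descriptions over bins of single libraries. ES H3K4me1, whose mean over libraries chose the bins, is given here as a description alone. Replicate 3, the inbred C57BL/6 line, averaged 2.99 RPM at the 93 bins and 2.67 RPM at the other 213 bins. Replicate 1 averaged 2.32 and 2.57 RPM in the same order. Over the 306 selected bins, replicates 1 and 3 had a Spearman rho of -0.21, and a part of the line in these values was not tested.

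Joined regions with the highest MEF H3K4me1, by their mean over member bins, differed in liver. The region at chr3:52268001-52269000 had 2.19 RPM of liver H3K4me1 and 11.4 RPM in MEFs, and it also had the highest NPC H3K27ac of the named regions, at 5.28 RPM. At chr8:8992001-8993000, liver H3K4me1 was 3.42 RPM and MEF H3K4me1 9.59 RPM. At chr16:24431001-24432000, the levels were 11.1 RPM in liver and 10.2 RPM in MEFs, and at chr6:134493001-134494000 they were 10.8 and 9.87 RPM in the same order. High MEF H3K4me1 thus stood beside lower liver H3K4me1, still above 2 RPM, in some regions and beside similar levels in others.

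H3K4me1 of liver was next tested against that of MEFs in each bin, with limma on log2 CPM (reads per 1000000) over all 880452 bins that had at least 5 reads in 1 library. The 3 ES libraries gave the spread, with 2 residual degrees of freedom, and the single liver and MEF libraries were assumed to vary like them. The mean of these ES libraries also chose the bins, and what that did to the spread at the premarked bins was not tested. Of the 306 premarked bins, all of which entered the test, 108 (35.3%, 30.2 to 40.8%) were higher in liver at an adjusted p under 0.05, where 4.46% of all bins tested were. None was lower in liver, where 5.79% of all bins tested were, and 13 premarked bins were lower and 182 higher at an unadjusted p under 0.05. The median log2 difference, liver minus MEF, was 1.76 (quartiles 0.58 and 2.90) over the premarked bins and -0.24 over all bins tested.

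The interval of this share spans that of liver-active bins unmarked in ES cells and lies above that of bins active in ES cells and liver. At the latter, 23.8% (22.1 to 25.4%) were higher in liver and 5.37% lower. The share was 38.1% (37.3 to 38.9%) at liver-active bins unmarked in ES cells, with 0.0937% lower, and 1.34% (1.08 to 1.66%) at premarked bins quiet in liver, with 8.30% lower. The median log2 difference was 2.87 at the unmarked set and -0.39 at the quiet set. The calls lay close to the threshold, with adjusted p between 0.0397 and 0.0490 by limma in the 108 bins and log2 differences of 1.87 to 5.34. Without any one of the 3 ES H3K4me1 libraries, the fit called 0 of 813113 to 869790 bins in the genome in either direction, members included, while 176 to 191 premarked bins were higher in liver at an unadjusted p under 0.05. With libraries scaled by total reads alone, 0 of all 880452 bins were called in either direction, with 186 premarked bins higher at an unadjusted p under 0.05. Without ES H3K27ac replicate 1 in the rule, 239 of 682 bins were called higher in liver, and without replicate 2 177 of 510.

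**Figure D3:**
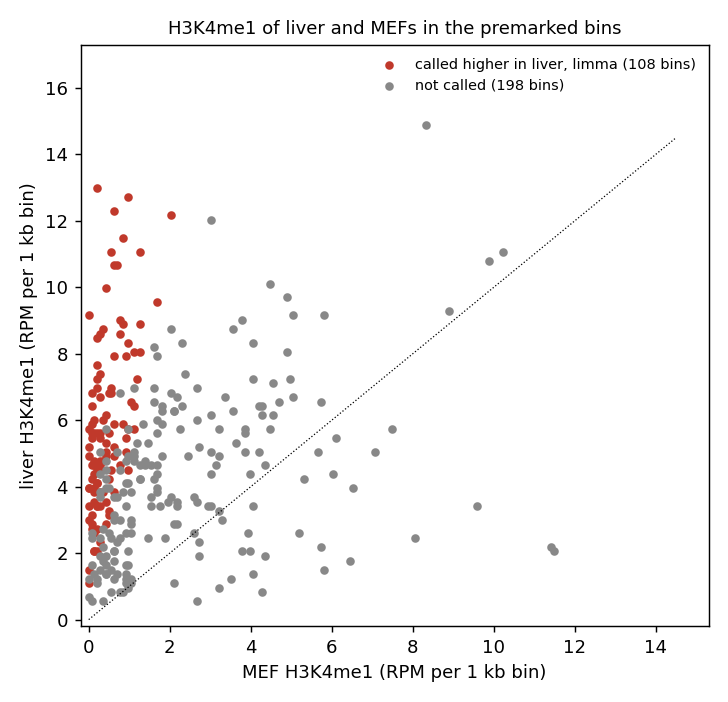
Liver H3K4me1 (vertical axis) against MEF H3K4me1 (horizontal axis), both in RPM per 1 kb bin, for the 306 premarked bins, with the 108 bins called higher in liver by limma in red and the others in grey. The dotted line marks equal levels, and 31 bins lie below it with MEF above liver.

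Regions with strong liver acetylation are described next. The region with the highest liver H3K27ac, at chr8:36681001-36682000, had 26.7 RPM (135 reads) of it, 12.7 RPM of liver H3K4me1 and 0.980 RPM of MEF H3K4me1. Its log2 difference, liver minus MEF, was 3.32 ± 0.384 (SE; adjusted p = 0.0397, limma). ES H3K4me1 there was 2.51, 1.81 and 2.90 RPM in the 3 libraries, ES H3K27ac 0.456 and 0.357 RPM, and iPS H3K4me1 3.92 RPM. At chr5:24664001-24665000, liver H3K27ac was 17.2 RPM, liver H3K4me1 13.0 RPM and MEF H3K4me1 0.210 RPM, with a log2 difference of 4.85 ± 0.535. Both regions were thus marked in ES and iPS cells and strongly acetylated in liver while low in MEFs.

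Other strong liver regions varied in MEFs. At chr15:39644001-39645000, liver H3K27ac was 18.4 RPM, liver H3K4me1 7.38 RPM and MEF H3K4me1 0.280 RPM. At chr2:24712001-24713000, liver H3K27ac was 17.6 RPM, liver H3K4me1 8.33 RPM and MEF H3K4me1 2.31 RPM, and its log2 difference of 1.64 did not pass the test (limma, adjusted p = 0.0749). The region with the highest liver H3K4me1, at chr2:27541001-27542000, had 14.9 RPM of it and 8.33 RPM in MEFs, with 6.34 RPM of liver H3K27ac. At chr6:95675001-95676000, liver H3K4me1 was 12.3 RPM and MEF H3K4me1 0.630 RPM, with 7.53 RPM of liver H3K27ac. Of the 6 regions of 3 kb, the 4 with the highest liver H3K27ac had 14.7 RPM of liver H3K27ac at chr18:12781001-12784000, 6.04 RPM at chr2:109750001-109753000, 5.35 RPM at chr8:24659001-24662000 and 5.05 RPM at chr15:58839001-58842000, and MEF H3K4me1 of 0.595 to 0.817 RPM.

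iPS cells, made from MEFs by reprogramming to a pluripotent state, carried H3K4me1 at most premarked bins. The level averaged 2.55 RPM, with a lowest value of 0, a median of 2.62 and a highest value of 8.28 RPM. It reached 2 RPM in 200 of the 306 bins, or 65.4% (59.9 to 70.5%), where 4.36% of all distal bins did. The share was 62.4% (61.2 to 63.6%) at premarked bins quiet in liver and 0.305% (0.229 to 0.407%) at liver-active bins unmarked in ES cells. The interval of the premarked liver-active bins spans the value of the quiet ones, so at this depth, with 4.59 reads for 2 RPM, a difference between them was not detectable. The 3 bins with no iPS read do not show absence, since 3 reads would be 1.31 RPM there.

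Tested against MEFs in the same limma fit, iPS H3K4me1 was higher in 57 premarked bins (18.6%, 14.7 to 23.4%) and lower in 20 (6.54%, 4.27 to 9.88%) at an adjusted p under 0.05, where 5.70% and 9.41% of all bins tested were. At premarked bins quiet in liver, 28.9% (27.8 to 30.0%) were higher and 1.69% lower. At liver-active bins unmarked in ES cells, 0.141% were higher and 12.0% lower. At bins active in ES cells and liver, 18.8% (17.4 to 20.4%) were higher and 11.1% (9.94 to 12.4%) lower. The median log2 difference, iPS minus MEF, was 0.58 over the premarked bins, 1.59 over the quiet ones and -0.41 over all bins tested. Scaled by total reads alone, the median of all bins moved to -0.02. Under that scaling 66 premarked bins were higher and 7 lower, and of all 880452 bins 63685 were higher and 53689 lower. With trimmed-mean scaling 50149 of all bins were higher and 82875 lower. Without any one ES H3K4me1 library no bin in the genome was called in either direction, with 76 to 98 premarked bins higher at an unadjusted p under 0.05. Without ES H3K27ac replicate 1 in the rule, 114 of 682 bins were higher and 47 lower, and without replicate 2 95 and 37 of 510. This comparison and that of liver share the MEF and ES libraries.

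The premarked bins fell into a few patterns over liver, iPS and MEF H3K4me1 and NPC H3K27ac, each taken as present at 2 RPM or more. The most frequent was H3K4me1 in liver and iPS cells alone, with 114 bins (37.3%). That pattern held 28.3% of bins active in ES cells and liver, 1.77% of premarked bins quiet in liver and 0.212% of liver-active bins unmarked in ES cells. Liver H3K4me1 alone followed with 63 bins (20.6%), then H3K4me1 in liver, iPS cells and MEFs with 54 bins (17.6%), and liver and MEFs with 22 bins (7.19%). Liver H3K4me1 alone held 2.61%, 0.983% and 69.7% of the same 3 comparison sets in that order. These patterns were not counted over all distal bins. Since 2 RPM of iPS H3K4me1 stood for 4.59 reads, few reads separate patterns with iPS H3K4me1 from those without it. No mark in any of these libraries was seen in 12 bins. With or without NPC H3K27ac, all 3 cell types had H3K4me1 in 59 premarked bins, or 19.3%, against 0.721% of premarked bins quiet in liver, 0.0332% of liver-active bins unmarked in ES cells, 51.2% of bins active in ES cells and liver, and 0.317% of all distal bins. The rule chose neither side of these shares directly, but it fixed ES H3K4me1 and liver H3K27ac, which differ between the sets.

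**Figure D4:**
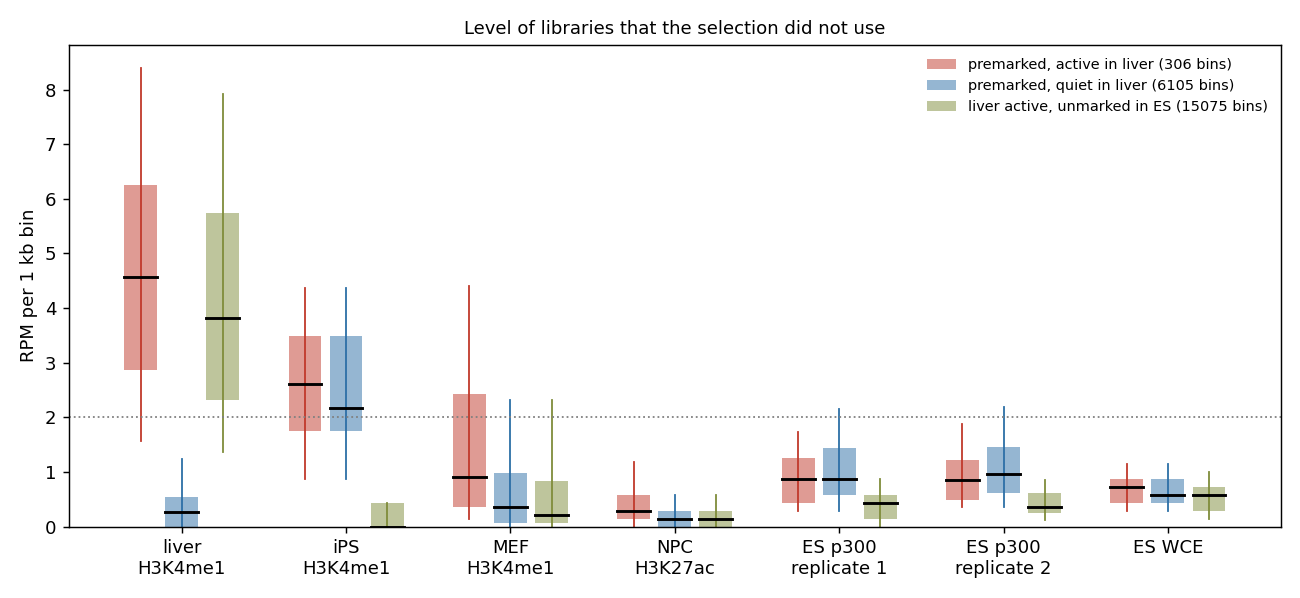
RPM per 1 kb bin (vertical axis) in 7 libraries that the selection did not use, for premarked bins active in liver (red), premarked bins quiet in liver (blue) and liver-active bins unmarked in ES cells (green), with the median as a black line, quartiles as a box and the 10th and 90th percentiles as a thin line. The dotted line marks 2 RPM, and the premarked liver-active bins have medians of 4.58 RPM in liver, 2.62 RPM in iPS cells and 0.910 RPM in MEFs.

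NPC H3K27ac was rare at the premarked bins. It averaged 0.480 RPM, with a lowest value of 0, a median of 0.294 and a highest value of 5.28 RPM, and 61 bins had no read. It reached 2 RPM in 13 bins, or 4.25% (2.50 to 7.13%), where 0.735% of all distal bins did. The share was 2.19% (1.86 to 2.59%) at premarked bins quiet in liver, 2.12% (1.90 to 2.37%) at liver-active bins unmarked in ES cells and 21.7% (20.2 to 23.4%) at bins active in ES cells and liver. The interval of the premarked liver-active bins overlaps that of the premarked bins quiet in liver and lies above that of the unmarked bins. More than 10 kb from any H3K4me3 bin, 7 of 91 premarked bins reached 2 RPM, or 7.69% (3.78 to 15.0%), against 2.50% (1.98 to 3.14%) of premarked bins quiet in liver, 2.30% (1.96 to 2.70%) of liver-active bins unmarked in ES cells and 0.492% of all distal bins. At that distance the interval of the premarked liver-active bins does not overlap the others.

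After the chr3 region given above, NPC H3K27ac was highest at chr4:81936001-81937000, with 2.94 RPM, where liver H3K4me1 was 7.38 RPM and MEF H3K4me1 2.38 RPM. It was 2.79 RPM at chr15:96375001-96376000, where no iPS read fell and MEF H3K4me1 was 1.82 RPM. Rfx1, measured in NPCs at 0.694 M distinct reads, had at least 1 read in 49 premarked bins and none in 257. No read fell in 5127 of 6105 premarked bins quiet in liver and in 2041531 of 2275022 distal bins. Rfx1 reached 2 RPM, which took 2 reads, in 14 premarked bins (4.58%, 2.75 to 7.53%), where 2.27% of all distal bins did. The share was 4.41% (3.92 to 4.95%) at premarked bins quiet in liver, within the interval of the premarked liver-active bins. At that depth single bins cannot be read.

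p300, measured in ES cells with 2 libraries, was low at the premarked bins and unevenly spread over them. It averaged 0.976 and 1.01 RPM, or 0.992 ± 0.0224 RPM (SD, n = 2 libraries), against 0.686 RPM of ES WCE. In the first library the lowest value was 0, the median 0.862 and the highest 8.48 RPM, and in the second 0, 0.849 and 8.25 RPM. The first library reached 2 RPM in 7.19% (4.80 to 10.6%) of the bins and the second in 9.15% (6.41 to 12.9%), where 1.33% and 0.937% of all distal bins did. Both libraries reached 2 RPM in 14 bins, or 4.58% (2.75 to 7.53%), where 0.715% of all distal bins did. The second p300 library is named p301 in 1 label and p300 in its title and antibody, and it was used as p300. Over the 306 bins, the p300 libraries had a Spearman rho of 0.61 with each other and 0.09 and 0.07 with WCE, as descriptions.

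Mean p300 was lower at the premarked bins than at those quiet in liver. The quiet ones averaged 1.12 and 1.19 RPM in the 2 libraries, so the difference, premarked liver-active minus quiet, was -0.163 ± 0.0313 RPM (SD, n = 2 libraries) with both libraries lower. The median was 0.862 RPM in both sets in the first library. In the second it was 0.849 RPM at premarked liver-active bins and 0.971 RPM at quiet ones. The SD does not cover the choice of bins. Liver-active bins unmarked in ES cells averaged 0.444 and 0.453 RPM, and the premarked bins were 0.543 ± 0.0156 RPM higher. An exact sign test over 2 libraries cannot give a 2-sided p under 0.5, so neither difference was tested further. WCE averaged 0.686, 0.654 and 0.559 RPM in the 3 sets in that order. More than 10 kb from any H3K4me3 bin, p300 was 1.05 and 1.07 RPM at premarked liver-active bins and 1.20 and 1.31 RPM at quiet ones.

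In the limma test of p300 against WCE over 942297 bins, 269 of the 306 premarked bins had enough reads to be tested, and the other 37 were not tested. Of the 269, 23 were higher for p300 at an adjusted p under 0.05 (8.55%, 5.76 to 12.5%), where 4.64% of all bins tested were, and none was lower, where 0.789% of all bins tested were. At an unadjusted p under 0.05, 52 were higher and 3 lower. The share was 11.7% (10.9 to 12.6%) of 5562 tested premarked bins quiet in liver, 0.0220% of 9076 tested liver-active bins unmarked in ES cells, 33.1% (31.3 to 34.9%) of bins active in ES cells and liver, and 2.48% of distal bins tested. The intervals of the premarked liver-active and quiet bins overlap. The p300 libraries gave 1 residual degree of freedom, and with repeated positions counted 0 of all 1057306 bins were called in either direction, with 43 premarked bins higher at an unadjusted p under 0.05. With ES H3 in place of WCE the share of premarked bins was 3.90%, where 27465 of all 1202457 bins were called higher.

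**Figure D5:**
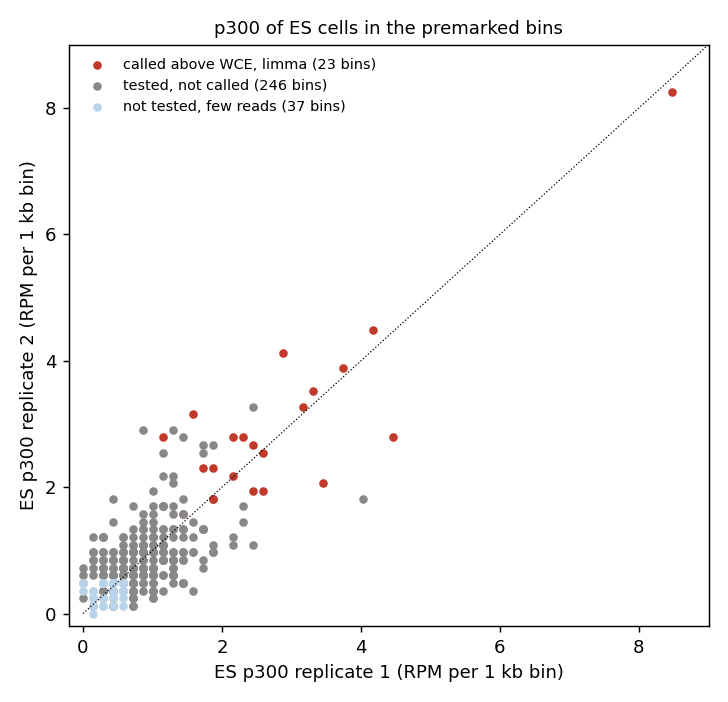
p300 of ES replicate 2 (vertical axis) against replicate 1 (horizontal axis), in RPM per 1 kb bin, for the 306 premarked bins. Red points are the 23 bins called above WCE by limma, grey points the 246 tested and not called, and light blue points the 37 with too few reads, and the highest bin stands at 8.48 and 8.25 RPM.

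The 23 p300-called bins included bins with and without H3K4me1 in liver, iPS cells and MEFs. Their log2 differences, p300 minus WCE, ran between 1.43 and 2.97, with adjusted p between 0.000123 and 0.0302 by limma. Liver H3K4me1 reached 2 RPM in 17 of them, iPS H3K4me1 in 16 and MEF H3K4me1 in 7. Over all 306 premarked bins the counts were 264 (86.3%), 200 (65.4%) and 93 (30.4%) in the same order. A bin with ES H3K27ac lay within 2 kb of 1 of the 23 bins, against 34 (11.1%) of the 306. Of the 23, 11 were more than 10 kb from any H3K4me3 bin, against 91 of the 306. Differences between the 23 bins and the whole set were not tested. ES H3K27ac averaged 0.491 and 0.341 RPM at the 23 bins, against 0.471 and 0.373 RPM over all 306 bins.

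The highest p300 was at chr6:83387001-83388000, with 8.48 and 8.25 RPM in the 2 libraries against 1.15 RPM of WCE, so that p300 exceeded WCE by a log2 difference of 2.61 ± 0.396 (SE; adjusted p = 0.000531, limma). ES H3K27ac there was 0.114 and 0.357 RPM, that is 1 and 3 reads, and liver H3K27ac was 4.75 RPM with 6.69 RPM of liver H3K4me1. At chr10:92972001-92973000, p300 was 3.31 and 3.52 RPM against 0.719 RPM of WCE, and liver H3K27ac was 9.90 RPM. At chr12:80544001-80545000, p300 was 3.16 and 3.28 RPM against 0.863 RPM of WCE, while liver H3K27ac was 2.18 RPM, at the limit, and liver H3K4me1 1.09 RPM. At chr4:35195001-35196000, p300 was 2.87 and 4.12 RPM against 0.288 RPM of WCE, and H3K4me1 was 9.29 RPM in liver and 8.89 RPM in MEFs. Liver acetylation thus ranged widely among the regions with the most p300.

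The other 2 regions named for high p300 had low MEF H3K4me1. At chr8:117001001-117003000, p300 was 2.66 and 2.67 RPM, liver H3K4me1 3.01 RPM, iPS H3K4me1 3.71 RPM and MEF H3K4me1 0.280 RPM. At chr2:155261001-155262000, p300 was 2.59 and 2.55 RPM, liver H3K4me1 2.19 RPM, iPS H3K4me1 4.79 RPM and MEF H3K4me1 0.350 RPM. In contrast, the region with the highest liver H3K27ac had p300 of 0.719 and 1.09 RPM against 1.15 RPM of WCE.

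The premarked regions were scattered over the genome. The median gap to the nearest other region was 1384 kb, with 12 of the 282 regions within 10 kb of another, 38 within 50 kb and 54 within 100 kb. Counts per chromosome ran between 9 bins on chromosomes 13 and 14 and 31 bins on chromosome 4, that is between 7.26 bins per 100 Mb on chromosome 14 and 24.5 on chromosome 19. As a share of the premarked unacetylated bins of each chromosome, they ran between 2.11% on chromosome 13 and 7.14% on chromosome 8.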

How the data were processed

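Each of the 20 deposited files lists read positions under chromosome names, with a minus sign for the reverse strand. These values that the authors deposited are positions (unit: other), not counts or a normalised signal. The sources used here give neither an aligner nor a genome build. Sections named U0 and U1 were both used, with 4.72 to 8.57% of reads in U1. Libraries held between 2.45 and 18.2 M reads (M, 1000000).

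Reads were counted once per position and strand, moved 100 bp toward the fragment centre and summed in 1 kb bins of chromosomes 1 to 19. RPM is per 1000000 distinct reads there, and bins within 1 kb were joined. The submitters' protocols give shearing to about 500 bp, 18 PCR cycles and gel fragments of 200 to 350 bp, so copies of 1 molecule were expected among repeated positions.

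Tests used limma 3.58.1 in R 4.3.3 (limma-trend, prior count 2, trimmed mean of M-values scaling, at least 5 reads in 1 library, Benjamini-Hochberg adjustment over all bins, 2-sided, 0.05). The script was tested on simulated data. The labels do not say whether libraries of 1 group came from separate cultures, so a p-value here reflects library-to-library spread that may be technical. The members, comparison sets and limits were chosen with earlier results of these data known. Named regions were those with ES and liver WCE under 2 RPM (277 of 282) and the highest liver H3K27ac, liver H3K4me1, p300, NPC H3K27ac, MEF H3K4me1 or width, 29 regions in all. No gene was named. Alternatives changed the duplicates, read shift, bin offset, limits, scaling, filter, prior count, test, background and libraries used.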

Additional observations from a re-analysis of the deposited data

How the results depend on the processing

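Of 171 alternative values, 106 kept within their limits of the main value and 65 moved. The labels did not assess a change of direction. Membership itself moved. Of the 306 bins, 245 remained with reads moved 50 bp (of 316), 245 with all reads kept (of 321), 287 with X and Y in the depth (of 301), and 232 to 276 without 1 ES H3K4me1 library.

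With ES H3K27ac under 0.5 RPM, 137 bins in 131 regions remained, 46 were higher in liver than MEF, 22 higher in iPS than MEF and 6 higher in MEF than iPS, p300 was 0.966 RPM, and liver and MEF H3K4me1 stood in 79.6% and 24.1%. With H3K4me3 under 1 RPM, the values were 182 bins, 175 regions, 59, 30 and 13 calls in the same order, and p300 of 0.902 RPM. With no filter on low bins, 29, 6 and 2 were called in that order and p300 above WCE in 0%. Scaling by total reads gave 0 bins higher in liver than MEF and 7 higher in MEF than iPS. With limma-voom, 179 were higher in liver than MEF, 10 in MEF than liver, 37 in iPS than MEF and 9 in MEF than iPS, with p300 above WCE in 2.23%.

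Reads moved 50 bp gave 1 bin higher in MEF than liver, p300 of 0.961 RPM and NPC H3K27ac in 2.22%. Bins moved by 500 bp gave 37 higher in iPS than MEF, p300 of 1.04 RPM and iPS H3K4me1 in 58.7%. All reads kept gave p300 of 0.946 RPM and p300 above WCE in 0%, and ES H3 as background gave 3.90%. More than 10 kb from H3K4me3, an alternative chosen after seeing the data, p300 was 1.06 RPM, and MEF H3K4me1, NPC H3K27ac and iPS H3K4me1 stood in 36.3%, 7.69% and 57.1%. Their causes were not tested.

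Leaving out 1 library at a time gave 280 to 682 bins, 264 to 615 regions, 0 to 239 bins higher in liver than MEF, 0 to 4 in MEF than liver, 0 to 114 in iPS than MEF and 0 to 47 in MEF than iPS. Shares ranged over 84.0 to 88.6% for liver H3K4me1, 26.8 to 32.8% for MEF H3K4me1, 60.2 to 68.5% for iPS H3K4me1, 3.92 to 7.04% for NPC H3K27ac, 9.88 to 24.5% for ES acetylation within 2 kb and 7.25 to 8.27% for p300 above WCE, and p300 over 0.907 to 1.03 RPM. Leaving out an ES H3K27ac library also took it out of the measure of ES acetylation within 2 kb. p300 above WCE could not be fitted without 1 p300 library, with no residual degrees of freedom. No paired analysis was possible because ES H3K27ac and p300 share replicate numbers but are not compared with each other, and the other groups compared share fewer than 2 numbers. Single liver, MEF, iPS and NPC libraries limit every comparison.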
